A study of Mus musculus with 24 samples.

Results

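The secreted Wnt antagonists examined here were 10 genes of 51138 in the count table: the secreted frizzled-related proteins Sfrp1, Sfrp2, Sfrp4, Sfrp5 and Frzb, the Dickkopf genes Dkk1, Dkk2 and Dkk3, the Wnt inhibitory factor Wif1, and Sost, which codes for sclerostin. The family was chosen by the level of Sfrp4 in CPM (counts scaled to library size), which was far lower in the constructs from toxin-treated mice, so the differences between toxin-treated and untreated groups are given as a description with no test. All constructs were ceramic granules of biphasic calcium phosphate (BCP) in subcutaneous dorsal pockets of Foxp3-DTR/eGFP mice, 8 to 9 weeks old and of both sexes, and RNA of the whole construct was sequenced at week 2. Every host, controls included, carried the diphtheria toxin receptor in its Foxp3-expressing cells.

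There were 6 groups of 4 constructs. The BCP group held 40 mg of granules alone, and in the BCP+MSC group 800000 bone marrow mesenchymal stromal cells (MSC) from wild-type C57BL/6J mice were seeded on the granules. For BCP+MSC+RvE1 the stromal cells were primed with resolvin E1 (RvE1), a lipid mediator, at 10 nM. For BCP+MSC+Treg they were cocultured with preactivated regulatory T cells (Treg) taken from Foxp3-DTR/eGFP spleens. The remaining groups came from hosts given diphtheria toxin at 50 µg/kg in repeated injections up to day 10: (dep)BCP+MSC, without further treatment, and (dep)BCP+MSC+RvE1inj, with daily local injections of 1 µM RvE1. Each mouse carried 2 constructs of the same kind, and by the study's account the 4 libraries of a group came from separate animals. In such bulk samples fewer cells of a type and less RNA per cell cannot be told apart, nor can host and seeded cells.

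Wnt ligands are secreted glycoproteins that bind Frizzled receptors and the coreceptors Lrp5 and Lrp6, and through β-catenin they promote osteoblast differentiation and bone formation. The Sfrp proteins and Frzb carry a Frizzled-like cysteine-rich domain and bind the ligands, as does Wif1, whereas Dkk1, Dkk2 and sclerostin bind the Lrp coreceptors. Dkk3 is a divergent Dickkopf protein whose part in Wnt signalling is less settled. Fibroblasts and other stromal cells are known sources of several Sfrp proteins, and sclerostin is typical of osteocytes.

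Promoter sequences were at hand in RefSeq (GRCm38.p6) for 7 of the 10 genes, each covering 250 bases before and 50 after the annotated start. Shown are the promoters of Sfrp2, the most abundant member, and of Dkk1, whose counts were at or near 0 in every library. A TATA box, an Sp1 box and a TCF/LEF core were searched on both strands, and matches are in capitals.
Sfrp2: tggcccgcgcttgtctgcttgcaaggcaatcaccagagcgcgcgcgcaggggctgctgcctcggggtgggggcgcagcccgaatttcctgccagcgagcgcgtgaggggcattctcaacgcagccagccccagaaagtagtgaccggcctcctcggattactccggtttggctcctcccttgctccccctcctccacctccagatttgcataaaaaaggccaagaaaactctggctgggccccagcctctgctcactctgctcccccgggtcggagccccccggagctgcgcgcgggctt
Dkk1: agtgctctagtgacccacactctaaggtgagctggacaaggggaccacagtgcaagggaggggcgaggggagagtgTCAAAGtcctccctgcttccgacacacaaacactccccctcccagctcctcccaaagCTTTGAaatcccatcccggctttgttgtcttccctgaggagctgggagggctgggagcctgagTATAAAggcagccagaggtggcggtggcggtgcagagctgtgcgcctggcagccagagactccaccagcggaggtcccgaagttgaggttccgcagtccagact
The Sfrp2 promoter lies at chr3:83766071-83766370 on the plus strand and held none of these motifs. The Dkk1 promoter lies at chr19:30549447-30549746 on the minus strand. It held 1 TATA box and 2 TCF/LEF cores, of which the first in the printed run reads on the opposite strand. The TATA box was searched as TATAAA, and was in the promoters of 3 of the 7 members (Dkk1, Dkk2 and Wif1) and in 13.6% of 32851 promoters. The Sp1 box was searched as GGGCGG, and was in those of 4 of 7 (Frzb, Dkk2, Wif1 and Sfrp5) and in 35.7% of all. The TCF/LEF core was searched as CTTTGA, and was in those of 2 of 7 (Frzb and Dkk1) and in 16.0% of all. A match describes the letters of this window only.

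The libraries held between 8482701 and 144417743 counts assigned to genes, a range of 17.0-fold. Of 24 libraries 7 were under 20000000, with 1 or 2 in each group but BCP+MSC, which had 0. Xist exceeded the Y-linked genes in 3 of 4 BCP+MSC libraries, in 2 of 4 (dep)BCP+MSC libraries and in 0 of 4 (dep)BCP+MSC+RvE1inj libraries, so sex was unevenly spread. Foxp3, which marks the cells targeted by the toxin, was at a median of 0.956 CPM in BCP+MSC, 0.934 in (dep)BCP+MSC and 0.727 in (dep)BCP+MSC+RvE1inj. In whole constructs its log2 fold change between (dep)BCP+MSC and BCP+MSC was 0.04 ± 0.51 (standard error, edgeR quasi-likelihood test, adjusted p = 0.989). The labelled depletion was thus not visible in this gene in constructs at week 2. By the paper's account, flow cytometry of lymph nodes and spleen showed fewer Treg after the toxin. The low level of Foxp3 in constructs is another measure and does not bear on those organs.

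Of the 10 members 8 passed the filter of 10 counts summed over all libraries. Dkk1 and Sost had 9 counts each in all 24 libraries and could not be compared between groups. Dkk1 was at 0 in 13 of 16 libraries of the untreated groups and in 5 of 8 of the toxin groups, and its highest value was 4 counts in a (dep)BCP+MSC library. Sost was at 0 in 20 of 24 libraries and reached 3 counts at most. A count of 0 allows up to 3 counts, which is 0.354 CPM in the shallowest library and 0.0208 CPM in the deepest. These floors use library totals, without the TMM scaling of the other CPM values. Mepe, an osteocyte gene, was likewise at 0 in all libraries of 3 of the groups, with 15 counts in all. Other genes of its list were not absent: Dmp1 had 928 counts and Phex 168. Of the 9 osteoblast and osteocyte genes, 8 or 9 were detected in each group.

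Levels of different genes were compared as CPM per kilobase of exon. Sfrp2 was the most abundant antagonist, with a mean over the 6 group means of 45.5, and it exceeded Sfrp4, the next gene, in 24 of 24 libraries. Sfrp4 (12.1), Sfrp1 (9.45) and Dkk3 (8.89) followed, and these neighbours were not separated: Sfrp4 exceeded Sfrp1 in 15 of 24 libraries and Sfrp1 exceeded Dkk3 in 14. Sfrp5 stood at 5.18 and Dkk2 at 1.197, with Sfrp5 higher in 22 libraries. Frzb (0.346) and Wif1 (0.271) were close, Frzb being higher in 13 of 24 libraries. Dkk1 and Sost stood at the limit of detection.

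**Figure D1:**
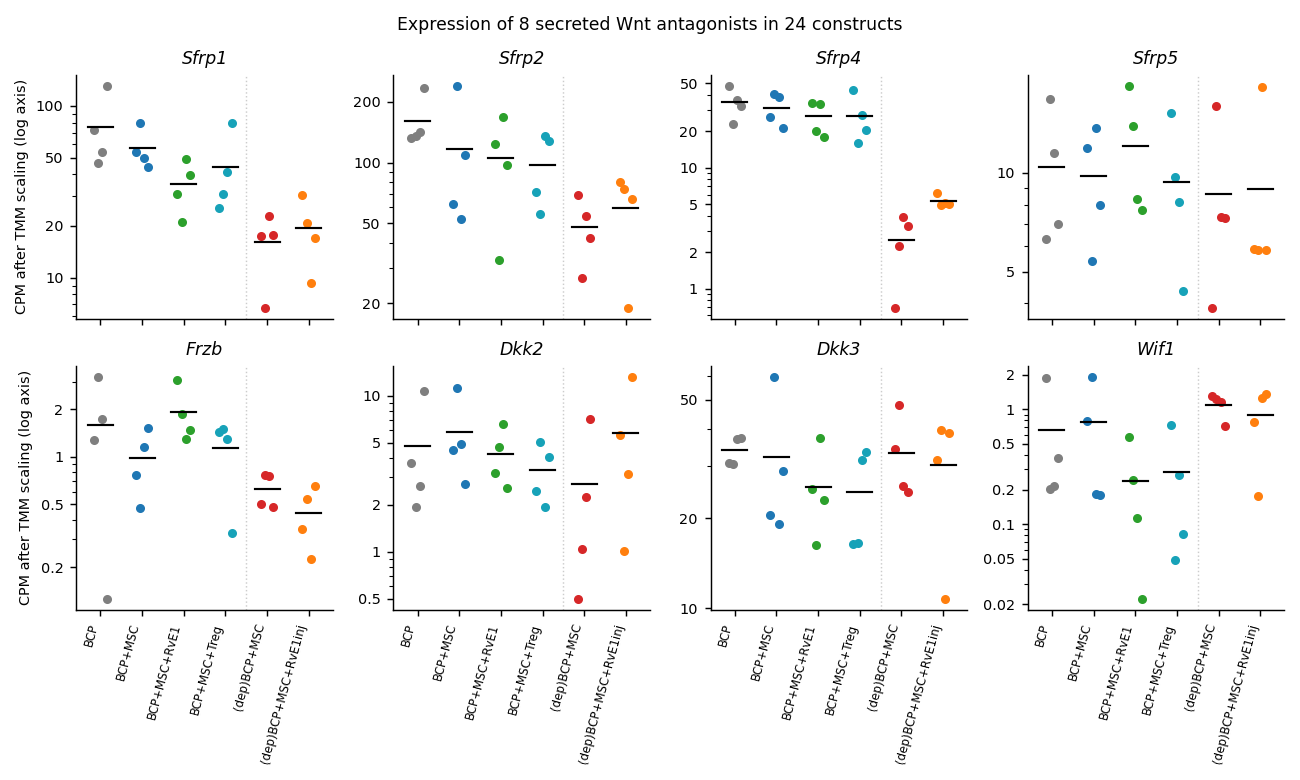
Expression of the 8 members that passed the filter, in CPM after TMM scaling on a log axis, with 1 point per construct and a bar at the mean of each group of 4; the dotted line parts the untreated groups from the toxin groups. Sfrp4 lies between 16.1 and 47.7 CPM in the 16 untreated constructs and between 0.698 and 6.13 in the 8 toxin constructs, whereas the ranges of Dkk3 and Sfrp5 overlap.

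Sfrp4 (chr13:19623175-19632821, plus strand, GRCm38), a ligand-binding antagonist, was the member that chose the family. In BCP constructs it stood at 47.7, 22.9, 36.3 and 32.3 CPM, and in BCP+MSC at 26.0, 40.4, 38.2 and 21.2. RvE1-primed constructs had 34.6, 20.1, 33.7 and 18.0 CPM, and Treg-cocultured ones 43.8, 16.1, 27.5 and 20.6. These 4 groups overlapped throughout, with means from 26.6 to 34.8.

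In (dep)BCP+MSC the Sfrp4 values were 0.698, 2.26, 3.90 and 3.30 CPM, and in (dep)BCP+MSC+RvE1inj 6.13, 4.89, 5.07 and 4.97. Every toxin construct was below every untreated construct, which was so for 0.628% of all genes tested, the highest toxin value being 6.13 and the lowest untreated value 16.1. The mean was 2.54 ± 1.40 (SD, n = 4) in (dep)BCP+MSC, 5.27 ± 0.58 (n = 4) in (dep)BCP+MSC+RvE1inj and 30.0 ± 9.77 (n = 16) over the untreated groups. The log2 difference was −3.57 ± 0.39 (standard error of the edgeR fit) for (dep)BCP+MSC against BCP+MSC and −2.57 ± 0.38 for (dep)BCP+MSC+RvE1inj against BCP+MSC. The lowest value rested on 7 counts, in the shallowest of all libraries.

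Sfrp1 (chr8:23411502-23449632, plus strand) binds Wnt ligands and also Frizzled receptors. It stood at 54.2, 79.8, 49.97 and 44.2 CPM in BCP+MSC, at 17.4, 6.70, 22.9 and 17.7 in (dep)BCP+MSC, and at 30.4, 20.8, 9.33 and 17.1 in (dep)BCP+MSC+RvE1inj. Neither toxin group overlapped with BCP+MSC, but the toxin constructs together (6.70 to 30.4) overlapped with the untreated ones (21.1 to 131). The log2 difference from BCP+MSC was −1.82 ± 0.43 in (dep)BCP+MSC and −1.55 ± 0.42 in (dep)BCP+MSC+RvE1inj. Sfrp4 and Sfrp1 were the 2 of 8 members that were lower without overlap in each of these contrasts, where 4.93% and 4.44% of the 30564 genes tested were. Sfrp4 is in this count by the choice of the family, so nothing is read from the share.

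Sfrp2 (chr3:83766321-83774316, plus strand), the promoter of which is shown above, was at 62.1, 241, 52.4 and 109 CPM in BCP+MSC. It was at 69.2, 26.8, 54.2 and 42.0 in (dep)BCP+MSC and at 79.8, 73.5, 19.0 and 65.7 in (dep)BCP+MSC+RvE1inj. The groups overlapped, and the log2 difference from BCP+MSC was −1.28 ± 0.52 in the former and −0.96 ± 0.51 in the latter. Without the BCP+MSC library at 241 CPM these were −0.62 and −0.29, and without the 7 libraries under 20000000 counts the second was −0.56. Of its 2153 exon bases 347 overlap Gm26771 on the opposite strand, and the counting was not stated to use strand, so reads there cannot be assigned to one gene.

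Frzb (chr2:80411970-80447625, minus strand), also known as Sfrp3, was a low gene. It ranged from 0.126 to 3.22 CPM in the untreated constructs, with a median of 1.37, and from 0.224 to 0.771 in the toxin constructs, with a median of 0.518. The lowest untreated value rested on 2 counts. The log2 difference between toxin and untreated groups was −1.37 ± 0.39, and the groups overlapped.

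Sfrp5 (chr19:42197971-42202252, minus strand) was at similar levels throughout, from 4.36 to 18.4 CPM in the untreated constructs and from 3.89 to 18.2 in the toxin constructs. Its log2 difference between toxin and untreated groups was −0.24 ± 0.29. Its correlation over 24 libraries, after each group's mean was removed, was −0.81 with Sfrp1 and −0.71 with Sfrp2, but 0.22 with Sfrp4 and 0.42 with Frzb. These points share library scaling.

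Dkk3 (chr7:112116017-112159057, minus strand) overlapped between all groups. It stood at 20.5, 59.8, 19.2 and 28.9 CPM in BCP+MSC, at 34.2, 48.0, 25.7 and 24.4 in (dep)BCP+MSC, and at 31.5, 39.5, 10.7 and 38.7 in (dep)BCP+MSC+RvE1inj. The log2 difference from BCP+MSC was 0.04 ± 0.38 in (dep)BCP+MSC and −0.09 ± 0.38 in (dep)BCP+MSC+RvE1inj, with overlap. The sign of both rested on single libraries: the first was −0.19 without the second (dep)BCP+MSC library, and the second was 0.43 without the second BCP+MSC library. Dkk2 (chr3:132085292-132180304, plus strand) varied widely within groups, from 0.498 to 7.12 CPM in (dep)BCP+MSC and from 1.01 to 13.2 in (dep)BCP+MSC+RvE1inj, against 1.92 to 11.2 in the untreated groups.

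Wif1 (chr10:121033960-121100650, plus strand) had the opposite sign to Sfrp4, on few reads. Its values were 1.30, 1.23, 1.15 and 0.714 CPM in (dep)BCP+MSC and 0.783, 0.175, 1.27 and 1.36 in (dep)BCP+MSC+RvE1inj. Over the 16 untreated constructs the lowest value was 0.0223, the median 0.229 and the highest 1.92, so the groups overlapped. The log2 difference between toxin and untreated groups was 1.17 ± 0.55. Wif1 moved with the list of 10 skin and hair genes, with a correlation of 0.69 over 24 libraries and 0.65 with group means removed. The summed level of that list ranged from 27.5 to 488 CPM in (dep)BCP+MSC and from 10.4 to 54.9 in BCP+MSC. The part of skin tissue in the Wif1 values was not tested.

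**Figure D2:**
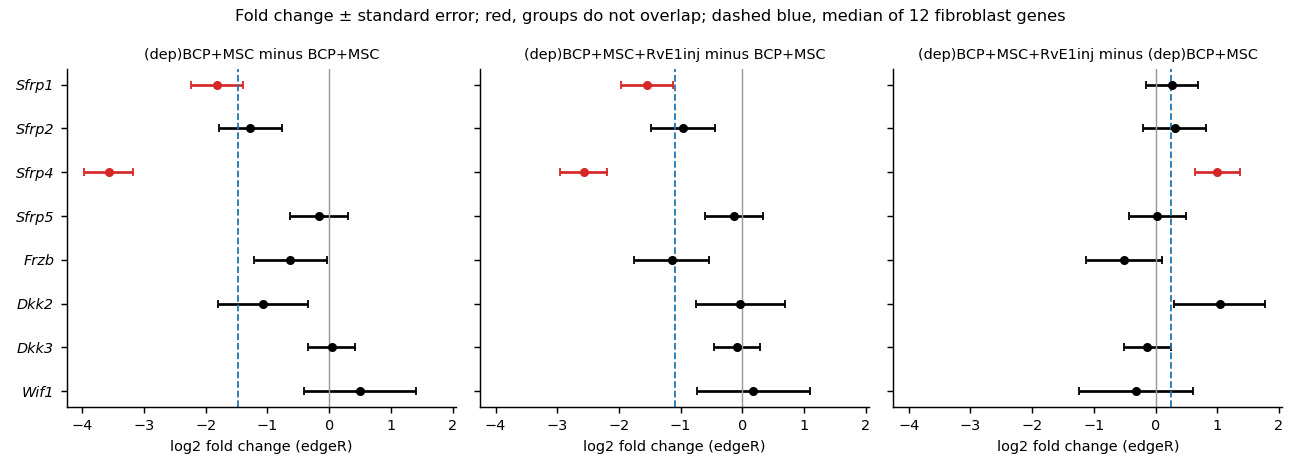
Log2 fold change (edgeR, ± standard error, 4 constructs per group) of the 8 members for each toxin group against BCP+MSC and between the toxin groups; red points are genes whose groups do not overlap, and the dashed line is the median of 12 fibroblast genes. Sfrp4, at −3.57 and −2.57, lies to the left of the fibroblast median in both toxin panels, and Dkk3, at 0.04 and −0.09, to the right.

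Fibroblast genes were also lower in the toxin constructs. Of 12 fibroblast genes, among them Col1a1, Pdgfra and Dcn, 7 were lower and 0 higher in (dep)BCP+MSC than in BCP+MSC (edgeR, adjusted p under 0.05), with a median log2 fold change of −1.48 against −0.04 for all genes. In that contrast 3.92% of all genes tested were called. Their summed level ranged from 21553 to 48491 CPM in BCP+MSC, from 7904 to 19079 in (dep)BCP+MSC and from 6124 to 20372 in (dep)BCP+MSC+RvE1inj, and none of the 12 genes was at 0 in any group.

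Each member was also expressed relative to the mean log2 CPM of these genes. On this scale the difference between toxin and untreated constructs was −0.06 for Sfrp2, −0.06 for Frzb, −0.50 for Sfrp1 and −2.01 for Sfrp4. Wif1 differed by 2.56, Dkk3 by 1.16, Sfrp5 by 0.74 and Dkk2 by 0.47. A gene at a constant CPM is higher in the toxin groups on this scale, because the fibroblast genes were lower there, so these positive values do not show that a gene rose. For Sfrp4 the range was −5.28 to −3.24 in the untreated constructs and −8.50 to −5.11 in the toxin constructs, which overlapped.

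With group means removed, the correlation with the fibroblast genes over 24 libraries was 0.86 for Sfrp2, 0.79 for Sfrp1 and 0.76 for Dkk3. It was 0.19 for Sfrp4, 0.20 for Dkk2, −0.20 for Frzb, −0.21 for Wif1 and −0.70 for Sfrp5. Without removal of the group means the values were 0.89 for Sfrp2, 0.92 for Sfrp1, 0.42 for Dkk3 and 0.77 for Sfrp4. With the list of mural cell genes the values for Sfrp4 were 0.82, and 0.39 with group means removed. The part of fibroblast or mural cell content in the lower Sfrp values was not tested.

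**Figure D3:**
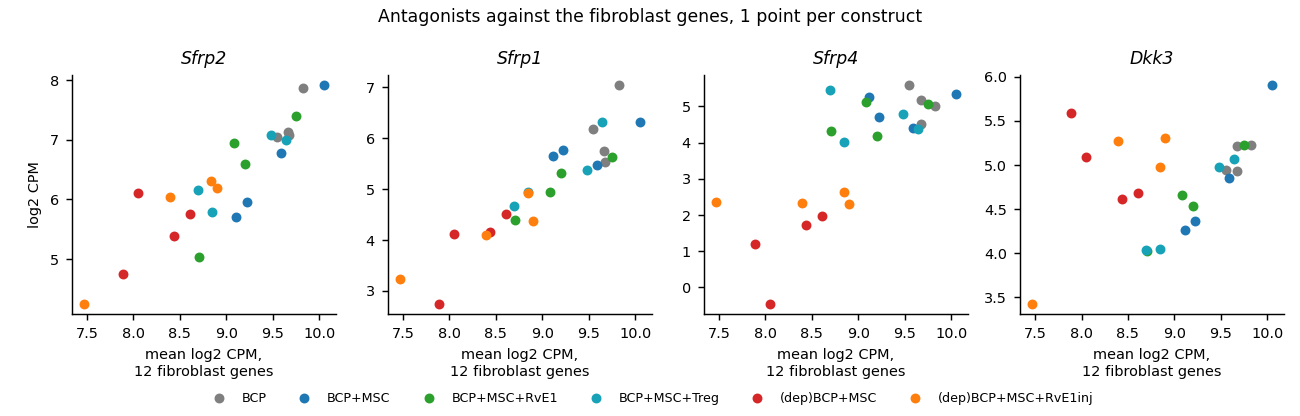
Log2 CPM of 4 antagonists against the mean log2 CPM of 12 fibroblast genes, with 1 point per construct coloured by group. Sfrp2 and Sfrp1 rise with the fibroblast level over all 24 constructs (correlation 0.89 and 0.92), and for Sfrp4 the toxin constructs lie below the others. No line was fitted. The fibroblast level runs from 7.46 to 8.90 in the toxin constructs and from 8.70 to 10.05 in the untreated ones, so few share a level. Of the toxin constructs, the first and second of (dep)BCP+MSC+RvE1inj do, and for Dkk3 they lie above the untreated constructs near their level.

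Genes of other cell types were called too, but 1 gene called in a list does not show that the cell type changed. Between toxin and untreated groups 8.79% of all genes were called higher and 7.17% lower. Against this, 3 of 5 mural cell genes, 2 of 6 endothelial, 2 of 7 macrophage, 1 of 9 osteoblast and osteocyte and 1 of 7 chondrocyte genes were lower. On the other side 4 of 6 T cell genes, 2 of 10 skin and hair genes and 1 of 10 skeletal muscle genes were higher, and of 6 adipocyte genes 0 were called. Their part in the members' values was not tested.

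The summed level of the 10 antagonists showed the makeup of the pool. It was 129 ± 30.8 CPM per kilobase in BCP, 102 ± 51.2 in BCP+MSC, 88.0 ± 35.0 with RvE1 priming and 84.4 ± 23.4 with Treg coculture (SD, n = 4 each). It was 43.3 ± 5.32 in (dep)BCP+MSC and 50.8 ± 15.4 in (dep)BCP+MSC+RvE1inj. Sfrp2 made up 49.0% of the sum in BCP+MSC, 50.5% in (dep)BCP+MSC and 51.4% in (dep)BCP+MSC+RvE1inj. Sfrp4 made up 19.5% ± 7.96 in BCP+MSC but 3.45% ± 1.92 in (dep)BCP+MSC and 6.46% ± 2.57 in (dep)BCP+MSC+RvE1inj. Dkk3 had 9.13% ± 1.00 in BCP+MSC and 23.1% ± 9.11 and 16.9% ± 4.48 in the toxin groups. The sum was lower there, and Dkk3 itself had log2 differences of 0.04 and −0.09 from BCP+MSC. Its larger share thus does not show that Dkk3 rose.

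**Figure D4:**
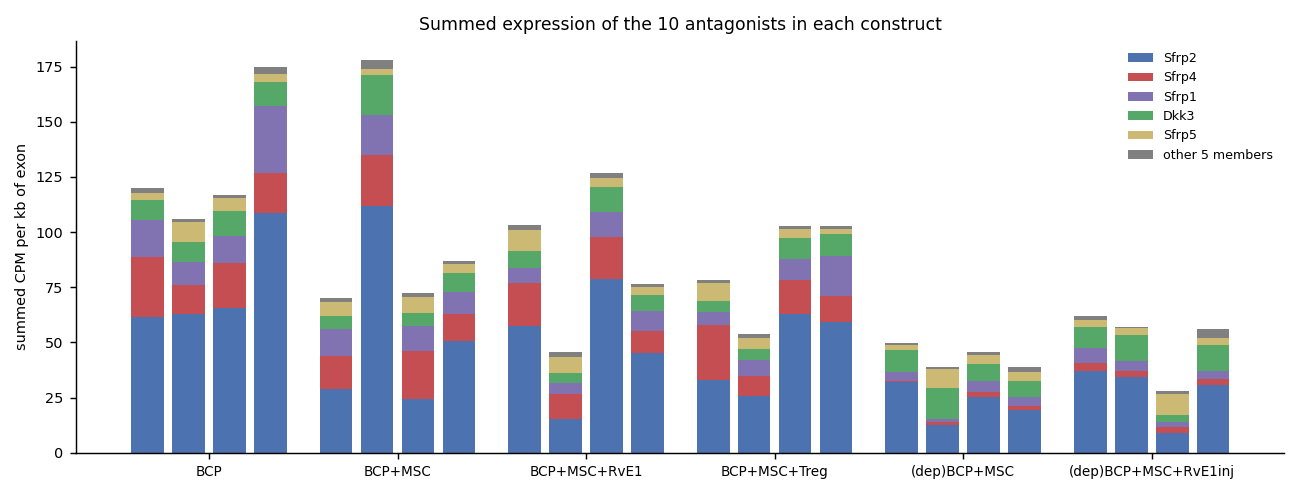
Summed expression of the 10 antagonists in CPM per kilobase of exon, with 1 stacked bar per construct and the constructs of a group side by side. The Sfrp4 segment takes 19.5% of the sum on average in BCP+MSC and 3.45% in (dep)BCP+MSC, while the Dkk3 segment takes 9.13% and 23.1%. The sum is lower in (dep)BCP+MSC, so a larger share does not show a higher level.

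The comparisons other than toxin-treated against untreated asked whether seeding, priming or RvE1 injection went with antagonist expression. They share constructs with the toxin contrasts, in which every group stands, and with each other. The comparison between the toxin groups uses Sfrp4 values that took part in the choice of the family. In 56 tests of 8 members over 7 comparisons, 0 passed an adjusted p of 0.05 with edgeR or with DESeq2, and 2 had an unadjusted p under 0.05 with either tool. Of all genes tested 0% passed in each of these comparisons with edgeR, and DESeq2 called between 0 and 99. An unadjusted p under 0.05 was found for 5.06% of all genes in BCP+MSC against BCP, 15.6% in BCP+MSC+RvE1 against BCP, 7.6% in BCP+MSC+Treg against BCP and 7.42% between the toxin groups. The priming groups gave 3.26% (RvE1) and 2.72% (Treg) against BCP+MSC and 2.37% against each other. An F test of any difference among the 4 untreated groups gave 0 members too, with adjusted p values from 0.772 (Sfrp1) to 0.989 (Sfrp5) and 0 unadjusted values under 0.05, where 5.22% of all genes had one.

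Between BCP+MSC and BCP, the comparison of seeding, the members had log2 fold changes from −0.72 (Frzb) to 0.32 (Dkk2) and a median of −0.12 against 0.06 for all genes. Sfrp4 was at −0.14 ± 0.35 (edgeR, adjusted p = 0.989) and Sfrp2 at −0.47 ± 0.51 (adjusted p = 0.936). Treg coculture gave values from −1.34 (Wif1) to 0.25 (Frzb) against BCP+MSC, with a median of −0.31 against −0.03 for all genes. Sfrp4 was at −0.22 ± 0.35 there and Dkk3 at −0.40 ± 0.38. Every member's groups overlapped in the 6 comparisons among the untreated groups. Of all genes, the groups did not overlap for 1.81%, 10.6% and 2.61% in the contrasts of BCP+MSC, BCP+MSC+RvE1 and BCP+MSC+Treg with BCP. For the RvE1 and Treg groups against BCP+MSC these shares were 1.71% and 1.05%, and against each other 1.01%.

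Between BCP+MSC+RvE1 and BCP, Sfrp1 had the smallest p of the members. It was at 30.7, 21.1, 49.3 and 39.7 CPM in BCP+MSC+RvE1, against 72.1, 46.2, 53.6 and 131 in BCP. The groups overlapped, and the log2 fold change was −1.10 ± 0.42 (edgeR, adjusted p = 0.300, exact permutation p = 0.0571), with an unadjusted p of 0.0148 where 15.6% of all genes had one under 0.05. The value was −0.70 (unadjusted p = 0.103, edgeR adjusted p = 0.572) without the BCP library at 131 CPM and −0.32 (adjusted p = 0.924) without the 7 libraries under 20000000 counts. Treg-cocultured constructs had 25.5, 30.8, 41.3 and 79.7 CPM, and their log2 fold change from the RvE1-primed ones was 0.33 ± 0.41 (edgeR, adjusted p = 1). Against BCP+MSC the Sfrp1 value was −0.69 ± 0.41 (adjusted p = 0.924). The fibroblast genes had a median of −0.47 against BCP, with 11 of 12 below 0 and 0 called. Frzb had the opposite sign, at 3.07, 1.87, 1.30 and 1.49 CPM in BCP+MSC+RvE1 and 0.764, 0.473, 1.16 and 1.53 in BCP+MSC, a log2 fold change of 0.98 ± 0.59 (adjusted p = 0.924).

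Between the toxin groups, the comparison of local RvE1 injection, Sfrp4 was the member whose groups did not overlap. The paper names no vehicle injection in (dep)BCP+MSC, so RvE1 and the daily injection itself cannot be told apart. Sex was also unevenly spread, with Xist above the Y-linked genes in 2 of 4 (dep)BCP+MSC and 0 of 4 (dep)BCP+MSC+RvE1inj libraries. All 4 (dep)BCP+MSC+RvE1inj values (4.89 to 6.13 CPM) were above all 4 (dep)BCP+MSC values (0.698 to 3.90), which was so for 1.3% of all genes. The log2 fold change was 1.00 ± 0.37, with an exact permutation p of 0.0286, two-sided, the smallest that 4 against 4 allows. The Sfrp4 values of both groups took part in the choice of the family. The p-values of Sfrp4 given here are therefore a description and are not read as support. It did not pass correction over all genes (edgeR, unadjusted p = 0.0112, adjusted p = 0.668), and 7.42% of genes had an unadjusted p under 0.05. Without the (dep)BCP+MSC library of 7 Sfrp4 counts the log2 fold change was 0.74, and without the 7 libraries under 20000000 counts, an alternative added after seeing the data, it was 0.82 (adjusted p = 1). Without the 2 (dep)BCP+MSC libraries whose columns have no matching number, also added after seeing the data, it was 1.75 and passed (edgeR, adjusted p = 0.0428).

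For the other members these groups overlapped. Sfrp1 was at 0.27 ± 0.42 (adjusted p = 0.877, edgeR), Sfrp2 at 0.31 ± 0.51 (adjusted p = 0.884) and Dkk3 at −0.13 ± 0.38 (adjusted p = 0.950). Dkk2 had a log2 fold change of 1.04 ± 0.73 (adjusted p = 0.714), with values in both groups spread over more than the difference. The fibroblast genes had a median of 0.24, with 10 of 12 above 0 and 0 called.

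The genes most like Sfrp4 over the 24 libraries, of 12971 compared by Pearson correlation of log2 CPM, were Spon2 (0.96), Mlec (0.96), Pcdh12 (0.94), Rtl1 (0.94) and Prrx2 (0.94). With group means removed the values of these genes were between 0.63 and 0.75, the highest being that of Spon2, but other genes then stood above it, up to 0.79. Over the untreated libraries alone they were 0.75 for Spon2, 0.51 for Pcdh12, 0.44 for Prrx2, 0.35 for Mlec and 0.29 for Rtl1. The ranking over 24 libraries includes the difference between toxin and untreated groups, by which Sfrp4 was chosen. Spon2, a secreted matrix protein gene, stood at 69.1 ± 29.9 CPM in BCP+MSC, 4.44 ± 2.77 in (dep)BCP+MSC and 6.84 ± 3.08 in (dep)BCP+MSC+RvE1inj (SD, n = 4 each). Prrx2, a homeobox gene of mesenchyme, was at 12.5 ± 3.42, 1.90 ± 1.46 and 3.86 ± 1.33. Mlec, which codes for an endoplasmic reticulum lectin, was at a higher level and differed less, at 286 ± 12.4, 120 ± 38.2 and 154 ± 18.9. Of the members themselves Sfrp1 was closest to Sfrp4 (0.75, and 0.11 with group means removed).

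Of 85 other genes of the Wnt pathway 82 were tested, comprising ligands, receptors, agonists, other antagonists, signal transducers and targets. In the 7 comparisons above 0 of 574 tests passed with edgeR and 0 with DESeq2, and 24 and 28 had an unadjusted p under 0.05. Of all genes, between 2.37% and 15.6% had one with edgeR, depending on the comparison. The smallest p for a gene lower in BCP+MSC than in BCP was that of Rspo3, an R-spondin that amplifies Wnt signalling, at −1.13 ± 0.37 (edgeR, adjusted p = 0.888). The ligand Wnt8b had the smallest p on the other side, at a mean of 0.0430 CPM in BCP+MSC (edgeR, adjusted p = 0.888). With RvE1 priming against BCP these genes were the receptor Fzd9 (1.86 ± 0.68) and the transducer Dvl3 (−1.66 ± 0.61), both at an edgeR adjusted p of 0.300. With Treg coculture against BCP they were Fzd9 (1.70 ± 0.67) and the coreceptor Lrp5 (−0.51 ± 0.22), both at an edgeR adjusted p of 0.614. Against BCP+MSC they were Rspo3 (0.79 ± 0.37) and the receptor Fzd7 (−0.46 ± 0.20) for RvE1, both at an edgeR adjusted p of 0.924. For Treg coculture against BCP+MSC they were the ligands Wnt1 (1.72 ± 0.90) and Wnt16 (−1.86 ± 0.85). Between Treg coculture and RvE1 they were the R-spondin Rspo1 (1.00 ± 0.48) and the ligand Wnt3, which was at 0 in all Treg constructs. Between the toxin groups they were the receptor Fzd2 (0.81 ± 0.25) and the R-spondin receptor Lgr4 (−0.76 ± 0.32), both at an edgeR adjusted p of 0.668.

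Between (dep)BCP+MSC and BCP+MSC 3 of the 82 genes were lower and 0 higher, a share of 3.66% where all genes gave 3.92%. Fzd2, a Frizzled receptor, was at 10.3 ± 3.96 CPM (SD, n = 4) in (dep)BCP+MSC and 23.4 ± 4.88 in BCP+MSC (n = 4), and its log2 fold change was −1.17 ± 0.25 (edgeR, adjusted p = 0.00802). Ror2, a Wnt5a receptor, was at 6.68 ± 2.17 and 15.2 ± 4.86, a change of −1.18 ± 0.27 (adjusted p = 0.0120). Tle2, a transcriptional corepressor, was at 7.86 ± 1.63 and 14.9 ± 2.48, a change of −0.92 ± 0.24 (adjusted p = 0.0271). The count moved between 1 and 6 when 1 library was left out, being 1 without the second BCP+MSC, the first (dep)BCP+MSC or the second (dep)BCP+MSC library, and 5 or 6 without the fourth BCP+MSC library or either (dep)BCP+MSC library whose column has no matching number.

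The genes nearest to the threshold on the other side were Wnt3, Lgr4, Pygo1, Tle1 and Wnt4. Lgr4 was at 22.9 ± 10.4 CPM in (dep)BCP+MSC and 11.4 ± 5.13 in BCP+MSC (log2 fold change 1.01 ± 0.32, edgeR, adjusted p = 0.0776). Wnt4, a ligand, was at 21.6 ± 5.79 and 5.71 ± 1.38 (1.92 ± 0.79, adjusted p = 0.175). Wnt3 was at 0 in all 4 BCP+MSC libraries and at most 0.897 CPM in (dep)BCP+MSC. On the lower side Tpbg, a Wnt inhibitor, and the target Ccn4 followed, at −0.97 ± 0.30 (adjusted p = 0.0695) and −1.504 ± 0.53 (adjusted p = 0.115).

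In (dep)BCP+MSC+RvE1inj against BCP+MSC 0 of the 82 genes passed with edgeR where 0.72% of all genes did, 15 had an unadjusted p under 0.05 where 13.7% of all genes did, and DESeq2 called 4 where it called 3.64% of all genes. The smallest p in each direction were those of the target Lef1 (1.64 ± 0.51, edgeR, adjusted p = 0.141) and Ror2 (−0.90 ± 0.27, adjusted p = 0.115). Over both toxin groups against the 4 untreated groups 17 were lower and 5 higher, or 26.8% where 16% of all genes were called. Among the roles, 3 of 7 agonists, 3 of 17 receptors, 3 of 17 ligands and 4 of 19 transducers were lower. So were 2 of 9 targets and 2 of 11 other antagonists, where 7.17% of all genes were lower. Higher were 1 of 17 ligands, 1 of 17 receptors, 1 of 19 transducers, 1 of 9 targets and 1 of 2 genes of ligand release. Of all genes 8.79% were higher.

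**Figure D5:**
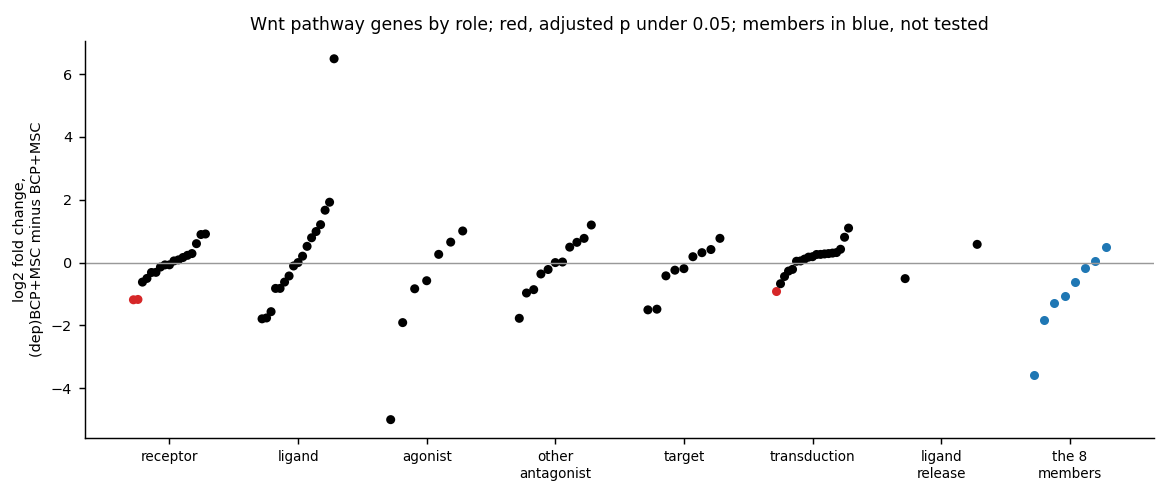
Log2 fold change (edgeR) of 82 Wnt pathway genes by role for (dep)BCP+MSC minus BCP+MSC, with 1 point per gene, red where the adjusted p is under 0.05, and the 8 antagonists in blue, which were chosen with this contrast and carry no test. The 3 red genes lie between −1.18 and −0.92, and Sfrp4 at −3.57 lies below every other gene but the agonist Rspo4, which was at 0 in every toxin construct.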

How the data were processed

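RNA of 24 whole constructs was sequenced paired end from stranded mRNA libraries. The authors aligned reads with HISAT2 2.0.5 and deposited raw counts per gene from featureCounts 1.5.2 (exons summed by gene, GENCODE M13 on GRCm38). The stated command set no option for strand, so a gene and its antisense partner cannot be told apart. Counts of 51138 genes in 24 columns were used as deposited, with symbols from GENCODE M21 of the same build. The (dep)BCP+MSC columns are numbered 1, 2, 4 and 5 and the labels 1 to 4, so columns 4 and 5 were taken as replicates of the group without a number.

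Genes with at least 10 counts over all libraries (30564) were fitted in 1 model of 6 groups with the quasi-likelihood test of edgeR 4.0.16 (TMM scaling, robust), and p-values were adjusted by Benjamini-Hochberg over all genes, with a threshold of 0.05. Log2 CPM used a prior count of 2. Single genes were also compared by an exact permutation test, two-sided, of log2 CPM, which cannot go below 0.0286 for 4 against 4. Floors of 3 counts cover counting error only. DESeq2 1.42.0, also named by the authors, and other settings served as alternatives. The script was tested on simulated data of 29679 genes for the contrast of (dep)BCP+MSC+RvE1inj with (dep)BCP+MSC. Of 100 genes changed by 3 on the log2 scale 90 were called, and of 100 changed by 1.5 on that scale 48 were. Of the unchanged genes 3 were called. The changed genes were drawn only from those with higher mean counts, so these shares do not cover low genes.

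The members and the gene lists (85 Wnt pathway genes and 10 cell type lists) were chosen with earlier results of these data known. All members were named, with the Wnt genes called or with the smallest p in each direction, the 5 with the smallest p each way between (dep)BCP+MSC and BCP+MSC, and the 5 genes most correlated with Sfrp4. Rspo4, named in a caption, was chosen after its value was seen. The toxin groups were a separate experiment in the study, whose batch is not given in the sources used here, so toxin and batch cannot be told apart. Nothing used here says that the untreated hosts received a control injection.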

Additional observations from a re-analysis of the deposited data

Results flagged for a closer look

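In 48 groups of 4 libraries (8 members in 6 groups) a gap test for 1 distant library (Dixon's, at its 95% critical value) singled out 5 values, where chance gives about 1 in 20. Sfrp2 in the fourth BCP library was at 233.7 CPM and the other 3 were between 132.7 and 141.1. In the third (dep)BCP+MSC+RvE1inj library Sfrp2 was at 19.0 CPM against 65.7 to 79.8 in the others, and in the same library Sfrp5 was at 18.2 against 5.80 to 5.85. That library held 13803176 counts and also had the lowest summed level of the 12 fibroblast genes in its group (6124 CPM). Sfrp4 in the first (dep)BCP+MSC+RvE1inj library was at 6.13 CPM, the others being between 4.89 and 5.07. Frzb in the fourth BCP+MSC+Treg library was at 0.329 CPM, on 4 counts, against 1.30 to 1.51 in the others. The part of depth or tissue content in these values was not tested.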

How the results depend on the processing

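The log2 difference of Sfrp4 from BCP+MSC stayed negative under all settings run: between −3.82 and −3.32 in (dep)BCP+MSC and between −2.72 and −2.40 in (dep)BCP+MSC+RvE1inj when 1 library was left out, and between −4.28 and −3.29 and between −2.58 and −2.34 under the other settings. Of the members' differences, 7 that were within 0.18 of 0 took the other sign in 32 alternative values, among them those of Dkk3 and Sfrp5 from BCP+MSC in each toxin group and that of Wif1 in (dep)BCP+MSC+RvE1inj (0.18, but −0.64 without the 7 libraries under 20000000 counts and 1.24 without the second BCP+MSC library). Between the toxin groups Sfrp4 ranged from 0.74 to 1.28 when 1 library was left out (edgeR adjusted p 0.365 to 0.972). The replicate numbers of the labels did not pair the libraries: 9 of 32 same-numbered pairs correlated above 0.1 (range −0.45 to 0.34), and in 0 comparisons did every pair. With the replicate block, which needs numbered columns and so drops 2 (dep)BCP+MSC libraries, 1 Wnt pathway gene was called between the toxin groups and 9 between (dep)BCP+MSC and BCP+MSC. Dropping those 2 libraries without the block, an alternative added after seeing the data, gave 1 and 11 Wnt genes, and 1 member between the toxin groups, Sfrp4 (1.75, edgeR adjusted p = 0.0428, against 1.73 and 0.0656 with the block). Nothing is read from that Sfrp4 call, since its values in both groups took part in the choice of the family. For (dep)BCP+MSC against BCP+MSC, where 3 Wnt genes were called, DESeq2 gave 10 (with 9.47% of all genes called), a fit of only the groups compared 1, and leaving out 1 library from 1 to 6. For (dep)BCP+MSC+RvE1inj against BCP+MSC, where 0 were called, DESeq2 gave 4 and a sex covariate 1. The causes were not tested. The other 378 values that answer a comparison kept their side of the threshold or stayed within the spread or within 1.5 times.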
